A study of Homo sapiens with 9 samples.

Results

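PC3 cells, an androgen-independent line established from a human prostate cancer, were compared after knockdown of MELK and after knockdown of UBE2C, with no control arrays in the comparison. The members are 6 of the 9 arrays of the series, 3 labelled as MELK knockdown and 3 as UBE2C knockdown, chosen by label and set against each other directly over 11573 genes detected among 47323 probes. Both groups received 50 nM of an ON-Target pool of 4 siRNAs against the one gene or the other, carried into the cells with HiPerfect, and RNA was taken 48 h later. Both therefore share the line, the type of siRNA, its supplier, dose and time, and differ in the targeted transcript. The pools are transient knockdowns in 1 cell line. Whether the samples of a group were cultured separately is not labelled. The p-values then reflect sample-to-sample spread only, and that spread may be technical.

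MELK, the maternal embryonic leucine zipper kinase, belongs to the family of kinases related to the energy sensor AMPK, and its transcript is most abundant in dividing cells. UBE2C is the ubiquitin-conjugating enzyme that places the initial ubiquitins on substrates of the anaphase-promoting complex, the ligase that has cyclin B and securin destroyed so that mitosis can end. Both genes belong to the transcripts that proliferating tumour cells carry at high level. A difference between the groups does not say which of the knockdowns moved a gene, and a change that both made alike gives no difference here.

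Differences are given as MELK siRNA minus UBE2C siRNA on a normalized log2 scale, so that a positive value means a higher signal with MELK siRNA. The data come from 1-colour bead arrays, and their precision is bounded by how few arrays there are. Between 16559 and 18661 probes were above background on an array. UBE2C siRNA replicate 1 stood apart from the other 5 arrays. Over all genes its log2 values correlated at 0.885 to 0.899 with the rest, while pairs of the others correlated at 0.988 to 0.992 (across genes, which are no independent replicates). In 552 genes measured by bright probes in pairs, the gap between paired probes strayed from its average elsewhere by an SD of 2.01 here and of 0.150 to 0.300 on each other array. Every comparison is therefore given with all 6 arrays and with the 5 arrays that leave it out, 3 against 2. The PC3 markers KRT8, VIM, CDH1 and EPCAM were detected on all 6 arrays and KRT18 on 5. The luminal markers KLK3 and KLK2, the fibroblast markers DCN and PDGFRB, the endothelial markers VWF, CDH5 and KDR, and the blood cell markers PTPRC, CD3E and HBB were detected on none. Of the other markers of those cells, luminal TMPRSS2 and endothelial PECAM1 were detected on all 6, CD14 on 5, LUM on 4, COL1A1 on 3 and COL1A2 on 1, at log2 signals of at most 7.80.

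Each targeted transcript was lower with its own pool than with the other pool, and UBE2C alone passed the test with all 6 arrays. The UBE2C transcript (probe ILMN_2301083) had log2 signals of 12.91, 12.88 and 12.90 with MELK siRNA and of 11.58, 11.57 and 11.70 with UBE2C siRNA. All 3 UBE2C siRNA arrays, the array that stood apart included, lay below all 3 MELK siRNA arrays. The difference was 1.28 (SE 0.10, adjusted p = 0.0226 in limma) with 6 arrays and 1.26 (SE 0.07, adjusted p = 1.73e-07) with 5. With 5 arrays, UBE2C siRNA cells held 41.7% of the UBE2C signal of MELK siRNA cells. The arrays measure the RNA of whole cultures, so less transcript in each cell and fewer cells with the transcript cannot be told apart. The other UBE2C probe was dim on all 6 arrays, at 4.49 to 5.28, close to background.

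The MELK transcript (probe ILMN_2212909) had log2 signals of 9.46, 9.37 and 9.34 with MELK siRNA and of 10.97, 10.33 and 10.27 with UBE2C siRNA. The groups did not overlap, and UBE2C siRNA replicate 1 was the highest value. The difference was -1.14 (SE 0.21) with 6 arrays, which did not pass (adjusted p = 0.892 in limma), and -0.91 (SE 0.10, adjusted p = 0.000736) with 5, which did. With 5 arrays, MELK siRNA cells held 53.1% of the MELK signal of UBE2C siRNA cells. A second MELK probe (ILMN_1731184) read 8.26, 8.42 and 8.44 with MELK siRNA and 8.34, 9.53 and 9.46 with UBE2C siRNA. On this probe UBE2C siRNA replicate 1 fell among the MELK siRNA arrays, opposite to the tested probe, and the other arrays gave a difference of -1.13. The two-sided exact permutation p over 3 against 3 arrays was 0.1 for each tested probe, the smallest it can be, and 0.3 for the second MELK probe. Both targets lost their 5-array call when limma's prior spread was not allowed to follow signal level (adjusted p = 0.679 for MELK and 0.231 for UBE2C). MELK also lost it without UBE2C siRNA replicate 2 (adjusted p = 0.131) or 3 (adjusted p = 0.0584), and leaving out any 1 of the 5 arrays besides UBE2C siRNA replicate 1 ended the 6-array call of UBE2C (adjusted p from 0.113 to 0.609).

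**Figure D1:**
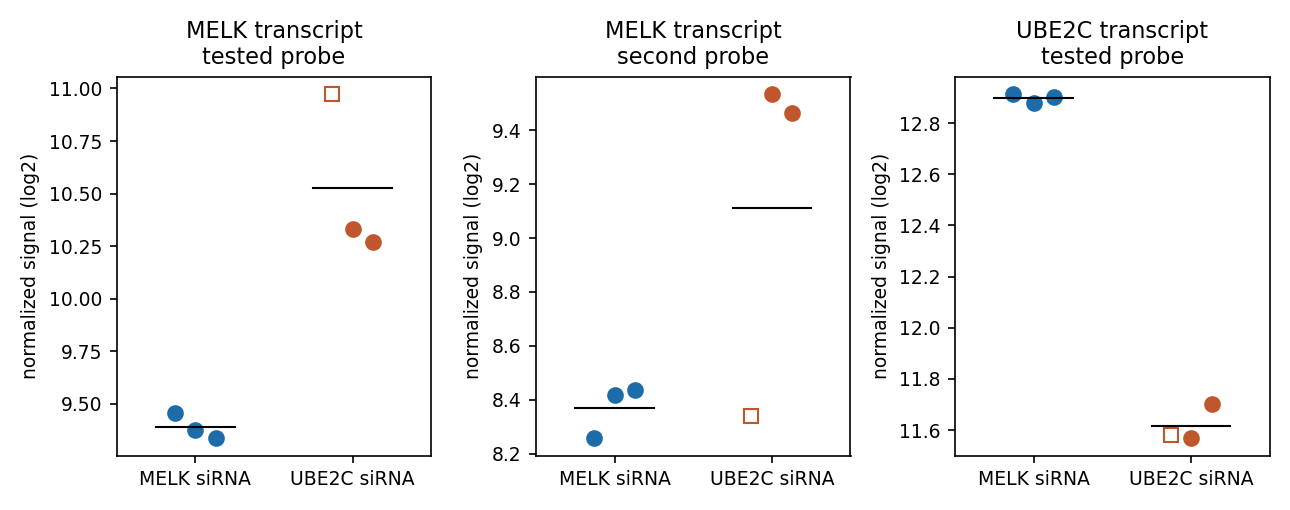
Normalized log2 signal (vertical axis) of the targeted transcripts on each array, with MELK siRNA in blue and UBE2C siRNA in orange. The open square is UBE2C siRNA replicate 1 and horizontal lines are means of 3 arrays. UBE2C is low on all 3 UBE2C siRNA arrays, MELK is low on all 3 MELK siRNA arrays, and the open square moves from the highest value to the MELK siRNA level between the MELK probes.

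Over the whole transcriptome the knockdowns were close to each other. With all 6 arrays 1 of 11573 genes passed the adjusted p threshold of 0.05 (0.00864%), namely UBE2C. Without adjustment, 144 genes were under a p of 0.05 in limma, fewer than the 579 expected if no gene differed. The same 579 are expected with 5 arrays. With 5 arrays 3 genes passed (0.0259%), namely UBE2C, MELK and TDP1, and 751 had an unadjusted p under 0.05, of which 424 were higher and 327 lower with MELK siRNA. The median absolute difference over genes was 0.21 with 6 arrays and 0.12 with 5. The median difference was -0.07 with 6 arrays and 0.027 with 5.

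Arrays of different knockdowns differed from each other about as much as arrays of the same knockdown. Without UBE2C siRNA replicate 1, the 6 pairs that join a MELK siRNA and a UBE2C siRNA array had median absolute differences of 0.142 to 0.194 on the log2 scale and correlations across genes of 0.988 to 0.992. The 3 pairs within MELK siRNA had median absolute differences of 0.152 to 0.191, and the 1 pair within UBE2C siRNA had 0.143. The pairs within a knockdown had correlations of 0.988 to 0.992, and the ranges of both kinds of pair nearly coincided, with the pairs between knockdowns reaching slightly past both ends. Pairs with UBE2C siRNA replicate 1 had 0.608 to 0.675 to MELK siRNA arrays and 0.674 to 0.685 to arrays of its own group, so that array was no closer to its own group than to the other.

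**Figure D2:**
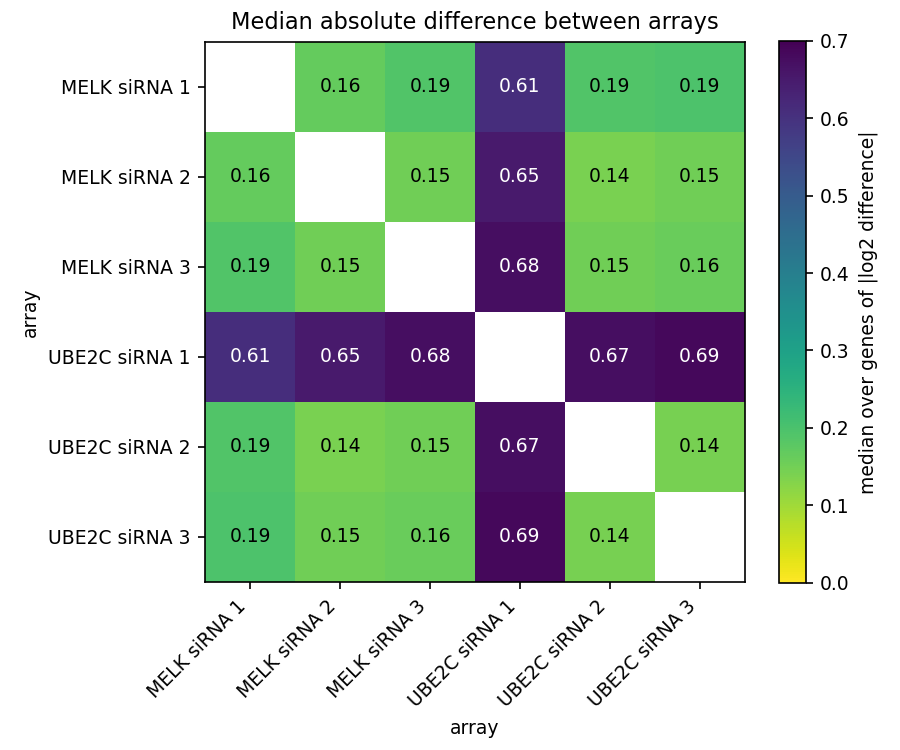
Median over 11573 genes of the absolute log2 difference between each pair of arrays, written in each cell and shown by colour. Cells between knockdowns resemble cells within a knockdown, and the row and column of UBE2C siRNA replicate 1 stand out at 0.61 to 0.69.

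The range of differences compatible with these arrays was read from the 95% intervals. With 5 arrays, the interval of the difference lay wholly within 0.5 log2 units of 0 for 55.0% of genes and within 1 log2 unit for 92.2%, reaching a median of 0.32 to either side of the estimate. With all 6 arrays these shares were 13.6% and 60.8%, and the median reach was 0.66. The residual SD was larger with UBE2C siRNA replicate 1 than without it for 84.7% of genes, at a median of 0.34 against 0.15. A gene that misses the threshold is thus not shown to be equal in both knockdowns.

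**Figure D3:**
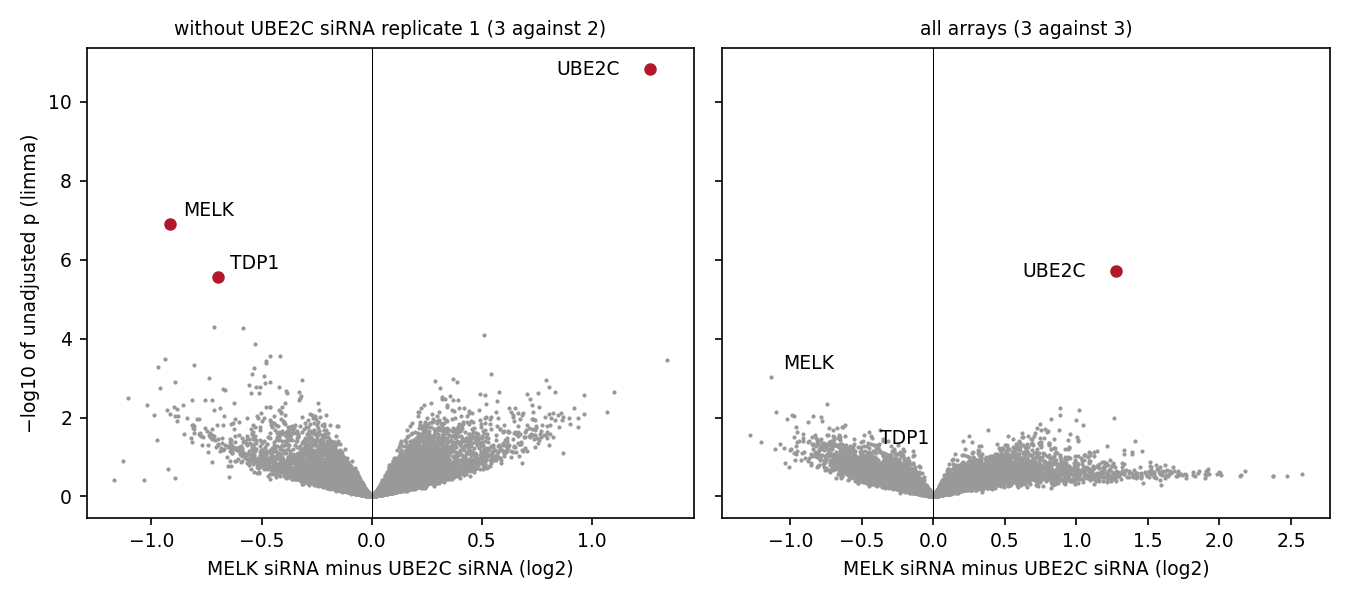
Log2 difference, MELK siRNA minus UBE2C siRNA (horizontal axis), against -log10 of the unadjusted limma p (vertical axis) for 11573 genes, without UBE2C siRNA replicate 1 on the left and with all 6 arrays on the right. Red points have an adjusted p under 0.05: UBE2C, MELK and TDP1 on the left and UBE2C on the right.

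TDP1, the phosphodiesterase that frees DNA ends from stalled topoisomerase I, was the only gene other than the targets to pass with 5 arrays, and it did not pass with 6 arrays of equal weight. Its tested probe (ILMN_2285713) read 10.07, 10.27 and 10.20 with MELK siRNA, 10.96 and 10.80 on UBE2C siRNA replicates 2 and 3, and 10.16 on UBE2C siRNA replicate 1. Replicate 1, which the 5-array fit did not use, lay among the MELK siRNA arrays. The difference was -0.70 (SE 0.10, adjusted p = 0.0105 in limma) with 5 arrays and -0.46 (SE 0.22, adjusted p = 0.892) with 6. Both other kept TDP1 probes gave 0.28, in the opposite direction, and the mean over the TDP1 probes gave -0.04. The 5-array call was also lost with median scaling (adjusted p = 0.256), a filter on the detection p alone (adjusted p = 0.323) or a prior that did not follow signal level (adjusted p = 0.688), with the control arrays added to the fit (adjusted p = 0.184), and without MELK siRNA replicate 2, UBE2C siRNA replicate 2 or UBE2C siRNA replicate 3 (adjusted p from 0.110 to 0.965).

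The genes with the next smallest p-values were of many kinds, and none passed. They were taken as the 11 genes higher and the 10 lower with MELK siRNA that had the smallest unadjusted p with 5 arrays and no overlap between groups, and their adjusted p ranged from 0.128 to 0.607 in limma. Over all genes the 5 arrays did not overlap, with MELK siRNA higher, for 14.2% of genes and, with MELK siRNA lower, for 9.24%. With 6 arrays these shares were 4.41% and 4.74%. UBE2C siRNA replicate 1 had no part in the 5-array p-values or overlap, but it did enter normalization, the filter and the choice of probe. That array lay on the UBE2C siRNA side for 12 of these 21 genes, and for 39.0% of the 2715 genes whose 5 arrays did not overlap.

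Among those with higher values after MELK siRNA, FADS1, a fatty acid desaturase, read 10.31, 10.27 and 10.28 with MELK siRNA and 9.87, 9.95 and 9.88 with UBE2C siRNA (difference with 5 arrays 0.37, SE 0.09, adjusted p = 0.546). All 3 arrays of each group lay apart. LAMB3, a laminin chain of epithelial basement membranes, read 10.59, 10.41 and 10.36 against 8.96, 10.09 and 10.05 (0.39, SE 0.10). GPX1, a glutathione peroxidase, read 12.98, 13.04 and 13.12 against 11.50, 12.68 and 12.84 (0.29, SE 0.07). In LAMB3 and GPX1 the groups also lay apart, with UBE2C siRNA replicate 1 well below the rest. The groups lay apart on all 6 arrays also for TULP3, a transport adaptor of the primary cilium (0.81), LSM4, an Sm-like protein of RNA processing (0.31), and VAMP2, a vesicle fusion protein (0.58).

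For 3 of the 11 higher genes UBE2C siRNA replicate 1 went the other way. SAR1A, the small GTPase that starts vesicle budding from the endoplasmic reticulum, read 11.55, 11.33 and 11.28 with MELK siRNA and 12.28, 10.81 and 10.95 with UBE2C siRNA (0.51, SE 0.10, adjusted p = 0.159 with 5 arrays, and 0.04 with 6). MCU, the pore of the mitochondrial calcium uniporter, read 8.40, 8.41 and 8.47 against 8.99, 7.97 and 7.80 (0.54, SE 0.13, adjusted p = 0.508). Replicate 1 was the highest of all 6 arrays for both genes. TMEM53 also had its highest value there. It was not well above background on UBE2C siRNA replicates 2 and 3 and was at least 2.03-fold higher with MELK siRNA with 5 arrays (adjusted p = 0.607). PLAAT2, a phospholipid acyltransferase, was not well above background on any UBE2C siRNA array and was above it on 2 of 3 MELK siRNA arrays. It passed the filter through MELK siRNA arrays alone, so some difference was built in. Its bound was at least 2.28-fold higher with MELK siRNA with 5 arrays (adjusted p = 0.356). The floored values set the mean of the brighter group against, per array, the larger of 2 signals: the dimmest detected probe's and that of the probe in question. They are point estimates and not lower limits.

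Among those with lower values after MELK siRNA, BRWD1, a bromodomain protein of chromatin, read 7.84, 7.95 and 7.96 with MELK siRNA and 8.33, 8.69 and 8.57 with UBE2C siRNA (difference with 5 arrays -0.72, SE 0.13, adjusted p = 0.128). The groups lay apart on all 6 arrays, but its other kept probes gave 0.10 and 0.28. POFUT1, which adds fucose to Notch receptors, read 10.92, 10.95 and 10.75 against 12.06, 11.26 and 11.31 (-0.42, SE 0.09, adjusted p = 0.356), with 0.07 on a second probe. The zinc-finger gene ZNF549 read 10.90, 11.06 and 10.66 against 11.11, 11.36 and 11.45 (-0.53, SE 0.11), with 0.02 on a second probe. In all 3 genes the tested probes lay apart on 6 arrays, and the other kept probes gave the opposite sign.

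UBE2C siRNA replicate 1 did not lie on the UBE2C siRNA side for 6 of the 10 lower genes. GABPA, a transcription factor of the ETS family, read 6.29, 6.05 and 6.67 with MELK siRNA and 4.43, 7.14 and 7.41 with UBE2C siRNA (-0.94, SE 0.20, adjusted p = 0.356 with 5 arrays, and 0.01 with 6). SMN1, needed to assemble spliceosomal particles, read 6.08, 6.22 and 6.16 against 4.45, 6.98 and 6.94 (-0.81 with 5 arrays). A second SMN1 probe gave 0.12. SMN1 has a near-identical copy, SMN2, so the copy is uncertain. FRRS1, a ferric reductase (-0.97), the histone chaperone NAP1L1 (-0.48), the peptidase ERAP2, which trims antigenic peptides (-0.48), and the zinc-finger gene ZNF394 (-0.46) were the others. Over all 45 named genes, 19 had 26 other kept probes, and 14 of these probes gave the opposite sign.

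With 5 arrays 9 genes differed by over 1 log2 unit, and UBE2C was the only one of them that passed. The largest negative value was that of DUSP4, a phosphatase that feeds back on ERK, named here after its values were seen. DUSP4 read 4.91, 7.23 and 7.95 with MELK siRNA and 4.26, 7.85 and 7.88 with UBE2C siRNA (-1.17, SE 1.14, adjusted p = 0.882). Its low values were on replicate 1 of each group, and the groups overlapped.

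Gene lists were read next, ordered from the pathway of UBE2C and the family of MELK outward. The 28 lists held 1469 symbols, of which 1088 were tested, and some genes stand on several. Only UBE2C, which stands on 3 lists, and MELK, which stands on 1, passed among all list members. UBE2C passed with 5 and with 6 arrays, and MELK with 5 arrays only. Over all genes, 56.4% were higher with MELK siRNA with 5 arrays. The 27 lists with at least 10 measured members had 5-array medians from -0.15 to 0.08.

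Subunits and regulators of the anaphase-promoting complex and the spindle checkpoint, with which UBE2C works, showed no further call. Of 27 measured, 18 were higher and 9 lower with MELK siRNA, with a median of 0.072 with 5 arrays and 0.061 with 6, and 20 had intervals within 0.5 log2 units of 0. The 5 arrays did not overlap for 4 in each direction (14.8% each, against 14.2% of all genes higher and 9.24% lower). The lowest value was that of ANAPC7, a scaffold subunit, which read 5.47, 6.15 and 6.86 with MELK siRNA and 4.18, 6.72 and 7.08 with UBE2C siRNA (-0.74, SE 0.33, adjusted p = 0.766). Its groups overlapped.

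Transcripts of substrates of the complex, UBE2C among them, lay slightly higher with MELK siRNA with 5 arrays. Of 41 measured, 32 were positive, with a median of 0.076. The 5 arrays did not overlap in 10 with MELK siRNA higher (24.4%, against 14.2% of all genes) and 2 lower (4.88%, against 9.24%). With all 6 arrays the median was -0.045. There 4 lay apart higher (9.76%, against 4.41% of all genes) and 1 lower (2.44%, against 4.74%). Apart from UBE2C itself, 0 passed, 5 had an unadjusted p under 0.05 in the higher direction with UBE2C counted, and 1 in the lower. That one was the S-phase transcription factor E2F1, at 7.06, 6.95 and 6.31 with MELK siRNA and 7.52, 7.23 and 7.76 with UBE2C siRNA (-0.72, SE 0.23, adjusted p = 0.736). E2F1 lay apart on all 6 arrays.

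Some members of this list, picked for their role after their values were seen, had differences near 0 with 5 arrays. Cyclin B, CCNB1, differed by 0.15 (95% interval -0.09 to 0.39), securin, PTTG1, by -0.06 (-0.21 to 0.09), the co-activator CDC20 by 0.07 (-0.08 to 0.23), the kinase AURKA by 0.09 (-0.07 to 0.25) and the apoptosis inhibitor BIRC5 by 0.10 (-0.06 to 0.27). None of these intervals reached 0.5, but other members lay further from 0. Among these, GMNN differed by 0.27 (0.06 to 0.48), TPX2 by 0.25 (0.05 to 0.46) and FOXM1 by 0.38 (0.04 to 0.73). In the other direction E2F1 differed by -0.72 (-1.20 to -0.23), and none of them passed. All these values bear on transcripts and not on the proteins that the complex destroys.

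The other ubiquitin-conjugating enzymes and the proteasome also gave no call beyond UBE2C. Of 26 enzymes 14 were positive, with a median of 0.018, and 22 had intervals within 0.5 log2 units of 0. UBE2B, an enzyme of DNA damage tolerance, had the lowest value (-0.51, SE 0.34), and CDC34, which works with cullin ligases, read 9.63, 9.51 and 9.66 against 4.43, 9.47 and 9.32 (0.21, SE 0.11, adjusted p = 0.769). The value of CDC34 on UBE2C siRNA replicate 1 was far below the rest and gave 1.86 with 6 arrays. Of 43 proteasome subunits 22 were positive, with a median of 0.0015, and 39 had intervals within 0.5. The ubiquitin receptor PSMD4 had the smallest p, at 12.11, 11.98 and 11.93 against 11.89, 11.77 and 11.71 (0.27, SE 0.08, adjusted p = 0.731 in limma). Other kept PSMD4 probes gave 0.13 and -0.01.

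Among kinases related to AMPK and their regulators, MELK was the 1 call of 20. The other members gave no unadjusted p under 0.05 with 5 arrays. Of the 20, 12 were positive and 8 negative, with a median of 0.051 with 5 arrays and -0.14 with 6. The AMPK subunit PRKAG2 differed by -0.21 (SE 0.10, adjusted p = 0.769) and the LKB1 partner STRADA by -0.20 (SE 0.10). The LKB1 gene STK11 read 6.90, 6.79 and 6.49 with MELK siRNA and 4.43, 6.65 and 7.38 with UBE2C siRNA, and its groups overlapped.

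Genes of mitosis and cytokinesis, most of them transcribed in the same phase of the cycle as MELK and UBE2C, lay slightly higher with MELK siRNA with 5 arrays and none passed. Of 66 measured 49 were positive (74.2%), with a median of 0.078, and 53 had intervals within 0.5 log2 units of 0. The 5 arrays did not overlap for 15 higher (22.7%, against 14.2% of all genes) and 5 lower (7.58%, against 9.24%). Of the list, 7 had an unadjusted p under 0.05 in limma, all higher. With 6 arrays the median was -0.011. There 6 lay apart higher (9.09%, against 4.41% of all genes) and 2 lower (3.03%, against 4.74%). TPX2, a spindle assembly factor, had the smallest p, at 10.77, 10.61 and 10.54 with MELK siRNA and 9.09, 10.42 and 10.35 with UBE2C siRNA (0.25, SE 0.09, adjusted p = 0.736). The transcription factor FOXM1, which drives many of these genes, read 10.08, 9.64 and 9.41 against 9.63, 9.36 and 9.30 (0.38, SE 0.16). The ends of the list were MYBL2 (0.94, SE 0.34, adjusted p = 0.736), above background on 1 of 3 UBE2C siRNA arrays, and the proliferation marker MKI67 (-0.33, SE 0.26).

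DNA replication and repair lists were close to the median of all genes. Of 58 replication genes 35 were positive, with a median of 0.040, 0 passed, and 3 higher and 2 lower had an unadjusted p under 0.05. The helicase subunit MCM2 read 10.02, 9.63 and 9.62 with MELK siRNA and 9.82, 9.39 and 9.39 with UBE2C siRNA (0.36, SE 0.13, adjusted p = 0.736), and the groups overlapped through replicate 1. Of 30 genes of recombination and the Fanconi pathway 14 were positive, with a median of -0.0024, 0 passed and 2 had an unadjusted p under 0.05. Histone genes, 48 measured, had a median of -0.033, with 19 positive, 0 called and 0 with an unadjusted p under 0.05. H4C15 had the smallest p (0.34, SE 0.17, adjusted p = 0.769).

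Stress and signalling lists gave no call. Of 31 p53 targets and apoptosis genes 20 were positive (median 0.052), and the BH3 protein gene BID read 8.08, 8.06 and 7.90 with MELK siRNA and 8.55, 7.70 and 7.45 with UBE2C siRNA (0.44, SE 0.14, adjusted p = 0.736). BID's replicate 1 value with UBE2C siRNA was the highest of the 6. Of 31 genes of the unfolded protein and ATF4 responses 17 were positive (median 0.040), with DNAJC3, an inhibitor of the kinase PERK, at 0.62 (SE 0.24, adjusted p = 0.736). Of 25 NF-kB, cytokine and chemokine genes 15 were positive (median 0.019). The protease PLAU read 12.63, 12.64 and 12.54 against 12.33, 12.30 and 12.43 (0.24, SE 0.07, adjusted p = 0.736), apart on all 6 arrays. Of 32 immediate-early and ERK feedback genes 19 were positive (median 0.024), with the phosphatase DUSP5 at 0.28 (SE 0.12, adjusted p = 0.736).

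Interferon and RNA-sensing genes showed opposite medians with and without the array that stood apart. Of 41 measured, 28 were positive with 5 arrays, with a median of 0.074. The 5 arrays lay apart with MELK siRNA higher for 12 (29.3%, against 14.2% of all genes) and lower for 0 (against 9.24%). With 6 arrays the median was -0.16, and 3 lay apart higher (7.32%, against 4.41% of all genes) and 0 lower (against 4.74%). The mean log2 signal over the list was 8.50 on UBE2C siRNA replicate 1 and 7.81 to 8.04 on the other 5 arrays. The antiviral membrane protein IFITM3 read 12.24, 12.09 and 12.03 with MELK siRNA and 12.83, 11.87 and 11.92 with UBE2C siRNA (0.22, SE 0.08, adjusted p = 0.736). No member passed, and 3 had an unadjusted p under 0.05, all higher.

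Lists of protein synthesis and metabolism had medians within 0.05 log2 units of 0 with 5 arrays and no call. Of 73 cytosolic ribosomal protein genes 35 were positive (median -0.0016) and 69 had intervals within 0.5. RPL9 had the smallest p (-0.21, SE 0.07, adjusted p = 0.736 in limma), and its other kept probes gave 0.14 and -0.01. Of 78 mitochondrial ribosomal protein genes 46 were positive (median 0.046). MRPS23 read 10.95, 11.04 and 10.91 with MELK siRNA and 11.42, 11.40 and 11.19 with UBE2C siRNA (-0.33, SE 0.09, adjusted p = 0.607), and lay apart on all 6 arrays. Of 77 respiratory chain genes 49 were positive (median 0.027), with the complex I subunit NDUFB8 at 0.22 (SE 0.07, adjusted p = 0.736). Cholesterol genes (26, median 0.0071, with the isomerase EBP at -0.25) and hypoxia and glycolysis genes (32, median -0.0083) were split, with 14 and 15 positive. The glycolytic enzyme ALDOA had the smallest p of the latter (0.21, SE 0.07, adjusted p = 0.736), and a second ALDOA probe gave -0.49.

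Matrix, adhesion and trafficking lists gave no call either. Of 33 collagen and matrix genes 23 were positive (median 0.058). The collagen VI chain COL6A2 read 10.93, 10.86 and 10.79 with MELK siRNA and 5.74, 10.63 and 10.46 with UBE2C siRNA (0.32, SE 0.09, adjusted p = 0.667). Replicate 1 alone moved its 6-array difference to 1.92. Other kept COL6A2 probes gave -0.06 and 0.26 with 5 arrays. Of 40 genes of integrins, laminins and epithelial junctions 27 were positive (median 0.032), led by LAMB3 above. Of 45 lysosome and autophagy genes 29 were positive (median 0.057). The proton pump subunit ATP6V0E1 differed by -0.19 (SE 0.07, adjusted p = 0.736 in limma), with 0.08 on a second probe. Of 42 Golgi and secretory transport genes 20 were positive (median -0.0018), led by SAR1A.

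Lineage and duplicated-gene lists were short. Of 13 androgen receptor and luminal genes 7 were positive (median 0.035), with NDRG1 at 11.14, 11.02 and 11.07 with MELK siRNA and 11.77, 11.28 and 11.33 with UBE2C siRNA (-0.23, SE 0.08, adjusted p = 0.736). Of 13 markers of fibroblasts, endothelium and blood cells on the array 4 were measured, CD14, LUM, COL1A1 and PECAM1, at differences of 0.44, 0.44, 0.47 and -0.19, all low in signal (4.59 to 6.80 over the 6 arrays) and none called. The NBPF and NPIP families have near-identical copies, so which copy was measured is uncertain. Of 10 measured 5 were positive (median 0.018), and NBPF11 had the smallest p (0.34, SE 0.17, adjusted p = 0.769).

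**Figure D4:**
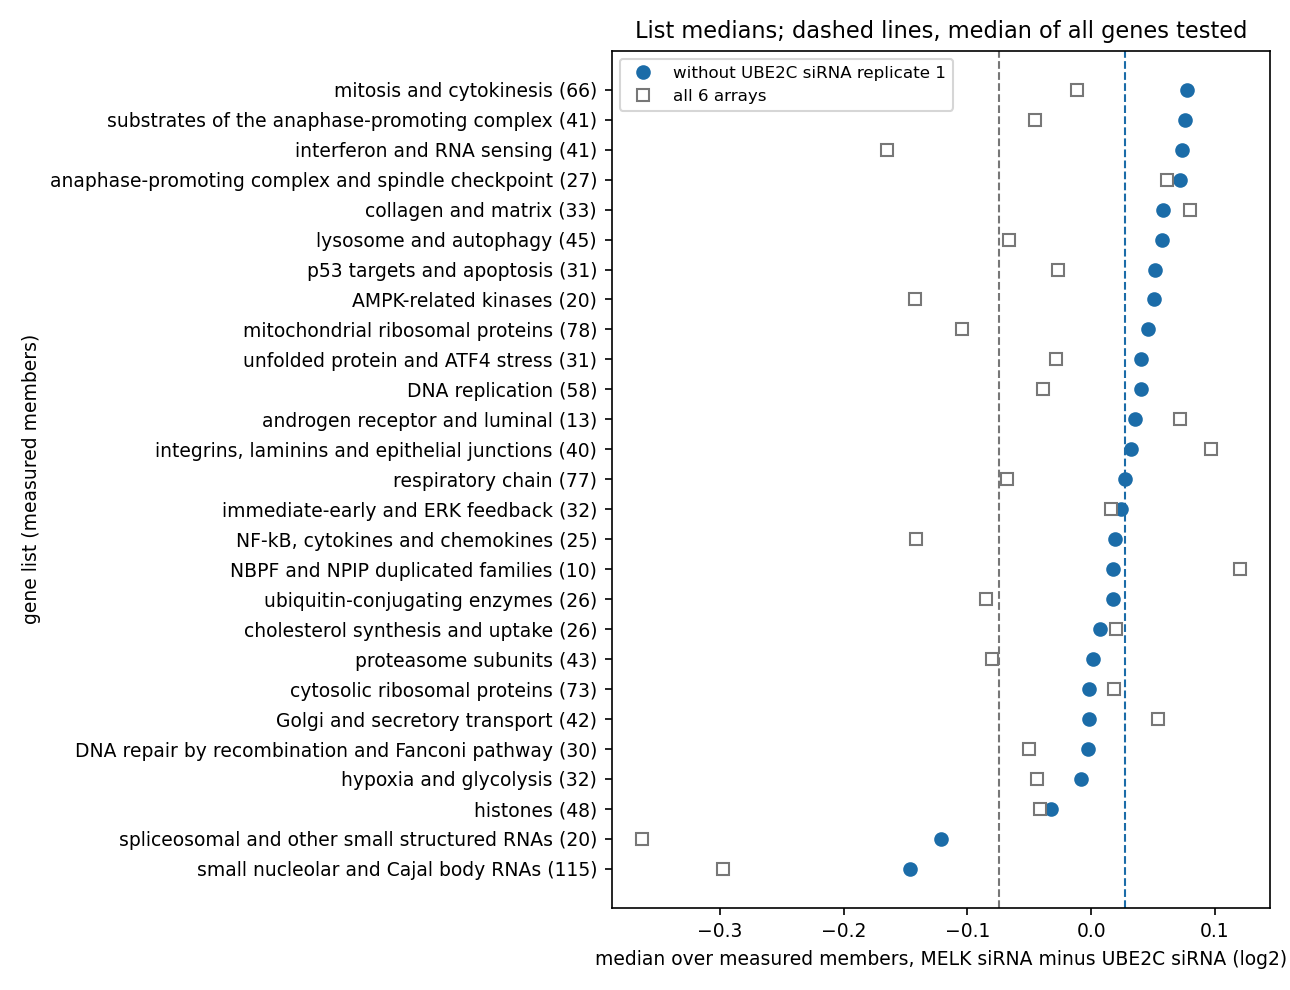
Median log2 difference, MELK siRNA minus UBE2C siRNA (horizontal axis), over the measured members of 27 gene lists (number of members in brackets). Blue circles are without UBE2C siRNA replicate 1 and open squares are with all 6 arrays, with dashed lines at the medians of all genes, 0.027 and -0.07. Both lists of small structured RNAs lie lowest, and most other circles lie within 0.05 of the dashed line.

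Small structured RNAs had the lowest list medians. Small nucleolar RNAs guide chemical modification of ribosomal RNA, in a C/D box class that directs methylation of the ribose and an H/ACA box class that directs pseudouridylation, and small Cajal body RNAs do the same for spliceosomal RNAs. Of 115 measured, 82 had lower values with MELK siRNA than with UBE2C siRNA with 5 arrays (71.3%, against 43.6% of all genes), with a median of -0.15, against 0.027 over all genes. The 5 arrays lay apart with MELK siRNA lower for 25 (21.7%, against 9.24% of all genes) and higher for 12 (10.4%, against 14.2%). With 6 arrays the median was -0.30. There 20 lay apart lower (17.4%, against 4.74% of all genes) and 4 higher (3.48%, against 4.41%). None passed singly with equal array weights and no block, and 9 had an unadjusted p under 0.05 in limma with 5 arrays, all lower.

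The direction was shared by the classes. Of 44 C/D box RNAs 32 were negative (median -0.16), of 59 H/ACA box RNAs 40 (median -0.10), and of 12 small Cajal body RNAs 10 (median -0.10). Of 10 spliceosomal RNAs 9 were negative (median -0.19), and of 10 other structured RNAs, such as Y and vault RNAs, 7 (median -0.12). In the last pair of classes together 5 of 20 lay apart with MELK siRNA lower (25%), with 5 arrays and with 6, and 0 higher. Over all genes 9.24% lay apart lower with 5 arrays and 4.74% with 6, and 14.2% and 4.41% higher.

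Of the 115, 8 were detected on no MELK siRNA array, so the filter kept them through UBE2C siRNA alone, and all 8 were negative. The 106 detected in both groups, a split made after the values were seen, held 74 negative members (69.8%, median -0.12), and the 60 detected on all 6 arrays held 44 (73.3%, median -0.15). Over all genes, 43.6% of those detected in both groups and 41.8% of those detected on all 6 arrays were negative. These RNAs sit low on the arrays, so their level was taken into account. Of the 115, 70 had a mean log2 signal under 6, and 49 of those were negative, while 46.0% of all 2815 genes in that range were negative. Of the 35 between 6 and 8, 24 were negative, against 43.5% of all genes there. The median over the list was nearer 0 in several alternatives: -0.06 with background taken from the signals alone, -0.05 in the authors' processed values, which differ in normalization too, and -0.05 without a detection filter, which adds members. It stayed negative in all 20 alternatives run, from -0.17 to -0.05. These are not 20 separate checks, since a change of prior cannot move this median and some other settings gave identical values.

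SNORD13, a C/D box RNA that acts in acetylation of ribosomal RNA and is transcribed from its own promoter, had the smallest p of the list. It read 9.84, 10.18 and 10.04 with MELK siRNA and 11.07, 10.61 and 10.60 with UBE2C siRNA (-0.58, SE 0.11, adjusted p = 0.128 with 5 arrays). The groups lay apart on all 6 arrays. SNORD13 passed with 6 weighted arrays, and with 5 arrays under a replicate block (-0.49, adjusted p = 0.00292 in limma), although no label pairs the arrays by replicate number. In that block fit MELK siRNA replicate 1 had no partner and added nothing to the difference, so the p leans heavily on limma's prior. SNORD46 read 6.32, 6.02 and 5.66 against 8.33, 6.77 and 6.74 (-0.76, SE 0.22, adjusted p = 0.667). SNORA68, an H/ACA box RNA at the low end of the list, read 5.40, 5.21 and 5.31 against 6.01, 6.08 and 6.16 (-0.82, SE 0.24, adjusted p = 0.669). Both were named after their values were seen, and both lay apart on all 6 arrays. At the other end, SNORA5C read 4.91, 5.29 and 5.20 with MELK siRNA and 5.77, 4.63 and 4.63 with UBE2C siRNA. It was not well above background on UBE2C siRNA replicates 2 and 3, and replicate 1 was the highest of the 6 arrays.

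Spliceosomal RNAs mostly gave values of the same sign. RNU11, a component of the minor spliceosome, had the smallest p, at 5.43, 5.35 and 5.66 with MELK siRNA and 7.0, 5.89 and 6.00 with UBE2C siRNA (-0.47, SE 0.24, adjusted p = 0.769). RNU6ATAC, also of the minor spliceosome, read 7.79, 7.55 and 7.66 against 8.86, 7.79 and 8.05 (-0.25, SE 0.15). RNU6-1, the brightest of them, read 12.66, 12.77 and 12.50 against 12.91, 12.74 and 12.63 and overlapped (-0.04, SE 0.08). Of these, RNU11 and RNU6ATAC lay apart on all 6 arrays.

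UBE2C siRNA replicate 1 stood above the other arrays in all of these classes except the C/D box RNAs, whose median of 5.68 there lay within the 5.38 to 5.71 of the others. The median log2 signal over the 59 H/ACA box RNAs was 6.55 on that array and 5.50 to 5.78 on the other 5. Over the 12 small Cajal body RNAs it was 7.79 against 6.38 to 6.66, over the 10 spliceosomal RNAs 8.58 against 7.54 to 8.03, and over the 10 other structured RNAs 8.03 against 7.05 to 7.18. Without that array, the class medians of both groups came close. H/ACA box RNAs were at 5.56, 5.57 and 5.50 with MELK siRNA and at 5.78 and 5.62 with UBE2C siRNA. C/D box RNAs also stayed apart, at 5.38, 5.53 and 5.49 against 5.71 and 5.55. The groups overlapped for small Cajal body RNAs (6.38, 6.66 and 6.52 against 6.56 and 6.53). They also overlapped for spliceosomal and other structured RNAs. Whether the share of small RNAs in the labelled material differed between arrays was not tested.

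**Figure D5:**
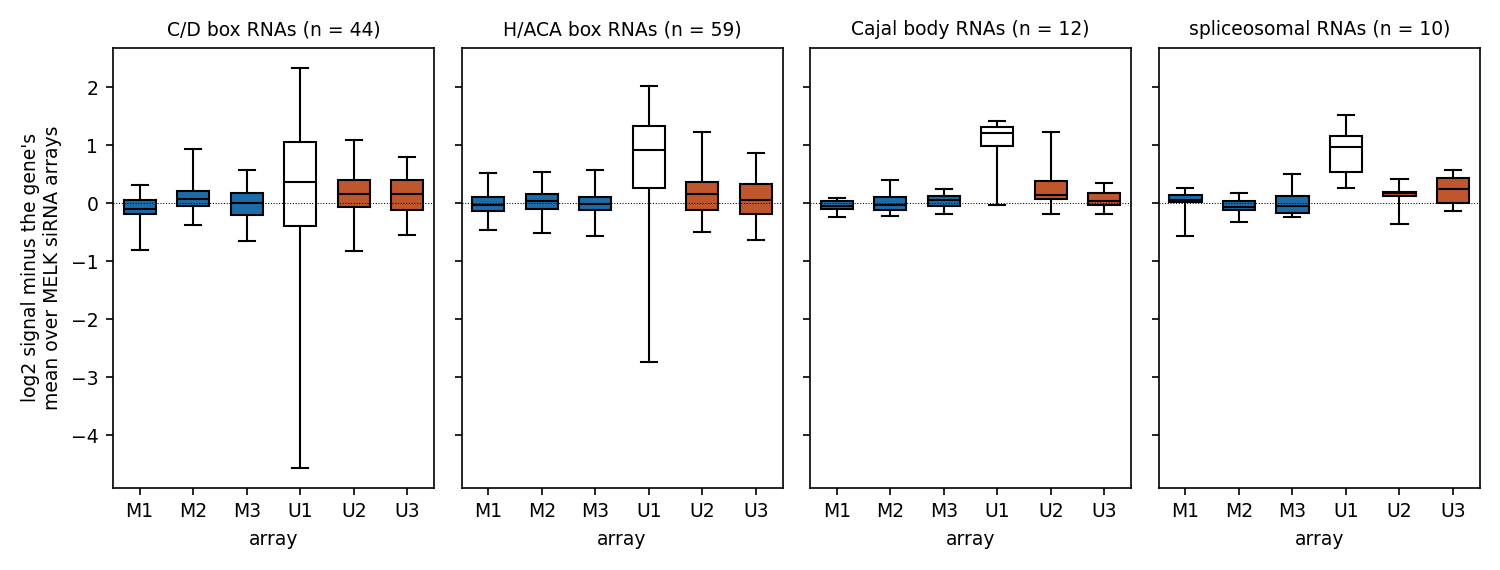
Log2 signal minus each gene's mean over the MELK siRNA arrays (vertical axis) for 4 classes of small RNA on each array, M1 to M3 with MELK siRNA (blue), U2 and U3 with UBE2C siRNA (orange) and U1, UBE2C siRNA replicate 1 (open). Boxes span the middle quartiles with the median as a line, and whiskers reach the lowest and highest gene. Medians of U2 and U3 lie slightly above 0 in each class, and U1 lies above both.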

How the data were processed

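Bead arrays were compared between MELK and UBE2C knockdowns. The deposited table holds linear bead intensities for each probe, neither background-subtracted nor scaled, as the values show (background level 99.5 to 102 on each array). Per the file headers, each intensity comes with a detection p-value, of unstated derivation. A further deposited table holds log2 values, whose median is 6.78 on every array, with a correlation of 0.998 to 1.000 with the log2 of the same array's signals; they are not background-subtracted and served as an alternative. The submitters' processing notes name lumi, with no version or role.

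Intensities were background-corrected from the detection p-values with an offset of 16 and quantile-normalized over the 6 arrays (the neqc steps of limma 3.58.1, R 4.3.3). The detection p was also small below background (2759 to 3108 probes per array with p under 0.01), so detection required p under 0.01 together with a signal over background, and probes detected on 2 or more of 6 arrays were retained (19938 probes, of which 4670 without 1 gene were not tested). In the platform annotation 30113 probes had 1 gene, 8 several and 17202 none listed; gene numbers matched RefSeq for 30074, and 0 symbols changed. The brightest kept probe stood for each of the 2998 genes with several. No build is given for the annotation, so coordinates are not printed. Group means were fitted with lmFit and a trended, robust eBayes, two-sided, with Benjamini-Hochberg adjustment over 11573 genes; the prior is known to call more genes than the plain one. Fits were also run on simulated data with independent noise, and no result given here rests on that run. Array pairs shared at most 15 identical signals, so each counted as 1 sample. No batch label was used here.

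Members, lists, filters and alternatives were chosen with earlier results of these data known. Genes named are the targets, called genes, the smallest unadjusted p-values without overlap up to 12 per direction, and per list the called members or the 1 with the smallest p; others are marked in the text. The values of 1 gene that this rule names are not reported here. No label pairs the arrays by replicate number. Deviations from the group means correlated at 0.24, 0.05 and 0.18 for equal numbers and at -0.23 to 0.20 for unequal ones. These values cannot decide on a pairing, because UBE2C siRNA replicate 1 weighs heavily on the mean of its group.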

Additional observations from a re-analysis of the deposited data

How the results depend on the processing

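Alternatives covered normalization, background, filter, prior, array weights, probe choice, added controls, a replicate block and each array left out. With 6 arrays 1 gene was called. The count was 0 with median scaling, cyclic loess, the plain prior, the mean of probes or the replicate block (142, 187, 202, 147 and 124 genes with an unadjusted p under 0.05 in limma), 6 with array weights (BRWD1, PLAAT2, SNORD13 and TDP1 beside the targets, with UBE2C siRNA replicate 1 at a weight of 0.0507 and the others at 1.14 to 3.78), and 0 to 3 with 1 array left out. With 5 arrays 3 genes were called. The count was 1 with the detection p alone, 0 with the plain prior (735 with an unadjusted p under 0.05), 5 with array weights, 1 with the mean of probes, and 1 to 6 with 1 array left out. It was 41 with the replicate block, 10 higher and 31 lower, and no label pairs the arrays by replicate number. In that 5-array block fit MELK siRNA replicate 1 had no partner. Differences therefore equalled those without it (-0.95 for MELK and -0.64 for TDP1 in both), and the p-values lean heavily on the prior. MELK with 6 arrays was -1.14; it passed at -0.94 with array weights (adjusted p = 1.0e-05) and ranged from -1.26 to -0.91 with 1 array left out, passing without UBE2C siRNA replicate 1. With 5 arrays it did not pass with the detection p alone (-0.91, adjusted p = 0.0540) or the plain prior (-0.91, adjusted p = 0.679), and ranged from -0.95 to -0.88 with 1 array left out. UBE2C with 6 arrays did not pass with median scaling (1.26, adjusted p = 0.427), cyclic loess (1.32, adjusted p = 0.0572), the plain prior (1.28, adjusted p = 0.896), averaged probes (0.70, adjusted p = 0.891) or the replicate block (1.28, adjusted p = 0.201), and ranged from 1.26 to 1.32 with 1 array left out. With 5 arrays it did not pass with the plain prior (1.26, adjusted p = 0.231) or when probes were averaged (0.66, adjusted p = 0.650), where the second probe lies near background. ALDOA turned to -0.14 with the mean of probes (adjusted p = 0.910). Other causes were not tested. Over all alternatives, list medians moved by more than the spread between replicates in 102 instances and by less in 1018. The targets gained a call in 2 instances and lost one in 16. The other named genes gained a call in 16 and lost one in 8. Many small RNA signals lie near background, which limits their precision, and leaving out UBE2C siRNA replicate 1 moved the median of small nucleolar RNAs from -0.30 to -0.15. A fit that leaves an arm with 1 array assumes that it varies like the other group.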
